A study of Arabidopsis thaliana with 39 samples.

Results

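Roots of Arabidopsis thaliana, accession Col-0, kept for 9 h in medium without phosphate and without iron were set against roots at the moment of transfer, time 0. The members are the 3 arrays titled as phosphate and iron deprivation at 9 h and the 3 arrays titled as full-nutrient control at time 0, which makes 6 of the 39 arrays of the series. The series has 13 groups of 3 arrays: time 0, and 3, 6 and 9 h after transfer to each of 4 media (lacking phosphate, lacking iron, lacking both, or full). All plants were Col-0 wild type grown for 10 days in full medium with phosphate at 1 mM, and each array received material amplified from 100 ng of root RNA. The double-deprived roots (without both nutrients, 9 h), the full-medium roots (full medium, 9 h) and the time 0 roots therefore share their growth before transfer. Double-deprived and full-medium roots also share the transfer and the 9 h, so a change against time 0 reported for the double-deprived roots combines medium, transfer and hours, which cannot be told apart in that comparison alone. Whether replicates are separate cultures is not stated in the labels, and the p-values measure only how these samples spread, which may be technical.

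Phosphate shortage is sensed in plant cells by SPX proteins, which release PHR1, a MYB-CC transcription factor that turns on phosphate transporters, phosphatases and lipid remodelling. Iron shortage acts in roots through a cascade of bHLH transcription factors, FIT among them, that turns on the ferric reductase and the iron transporter of the epidermis. The 2 nutrients meet in the local response of the root tip, where the ferroxidases LPR1 and LPR2 and the transcription factor STOP1 link low phosphate to iron deposition and the arrest of root growth.

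The roots without both nutrients at 9 h differed from time 0 at 495 of 28501 rows of the array, which is 1.74% of the rows, with 256 rows higher (0.898%) and 239 lower (0.839%). A row is 1 transcript cluster of the array, the values are on a log2 scale, and a row is called here when limma's adjusted p (Benjamini-Hochberg over all rows) was under 0.05. Of the called rows, 251 changed by at least 1 on the log2 scale. The arrays of the 2 groups did not overlap at 491 called rows, against 15.6% of all rows. The called rows were picked by the difference between these same arrays, so this is a description and no support for the calls. With the replicate number as a block, which pairs double-deprived and time 0 samples, the count was 774, with 407 higher and 367 lower. Left-out arrays also moved the count by more than 1.5 times: it was 246 without time 0 replicate 1, 304 without time 0 replicate 3, 312 without double-deprived replicate 1 and 307 without double-deprived replicate 2. In bulk roots, fewer cells of a type and less RNA per cell cannot be told apart.

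The called rows hold 227 genes that the annotation names one by one, 120 higher and 107 lower. In the platform annotation 16746 rows have 1 gene, 758 have several and 10997 have none, and 251 of the 495 called rows have no gene there. Most listed genes of the phosphate and iron pathways fall outside the rows with 1 gene, so no value is given for them.

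Full-medium roots differed from the same time 0 arrays at 362 rows (1.27%), 183 higher and 179 lower. Rows called in both media with the same sign numbered 262, 137 higher and 125 lower, and no row was called in opposite directions. These 262 rows are 52.9% of the calls without both nutrients and 72.4% of the calls in full medium. Both comparisons use the same 3 time 0 arrays. The shared count was 144 without time 0 replicate 1, 171 without time 0 replicate 3 and 173 without full-medium replicate 3. At the shared higher rows the median change was 1.16 in double-deprived and 1.13 in full-medium roots, and at the shared lower rows it was -1.19 in double-deprived and -1.11 in full-medium roots, beside -0.01 over all rows in each medium.

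A further 233 rows were called in double-deprived roots and not in full-medium roots, 119 higher and 114 lower. At 184 of them the full-medium roots moved the same way with an unadjusted p under 0.05, and at 49 they did not. The median change of the 119 higher rows was 0.88 in double-deprived and 0.53 in full-medium roots, and that of the 114 lower rows was -0.84 in double-deprived and -0.56 in full-medium roots. The reverse class, called in full medium alone, held 100 rows, 46 higher and 54 lower. Their medians in double-deprived and full-medium roots were 0.60 and 0.89 at the higher rows and -0.56 and -0.97 at the lower rows. A call in one medium and not in the other does not test the difference between the media. That test, double-deprived against full-medium roots, called 1 row (0.00351% of rows), and 1093 rows (3.83%) had an unadjusted p under 0.05. It comes from the main fit without a replicate term, so it leaves out the pairing of same-numbered samples described below. Of the 233 rows, 68 had an unadjusted p under 0.05 in that test and 1 was called, and of the 100 rows none was called. Both classes were picked by a call in 1 medium and not in the other, on the same arrays. That choice favours rows that differ between the media, so the 68 rows are a description and no sign of a medium effect.

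**Figure D1:**
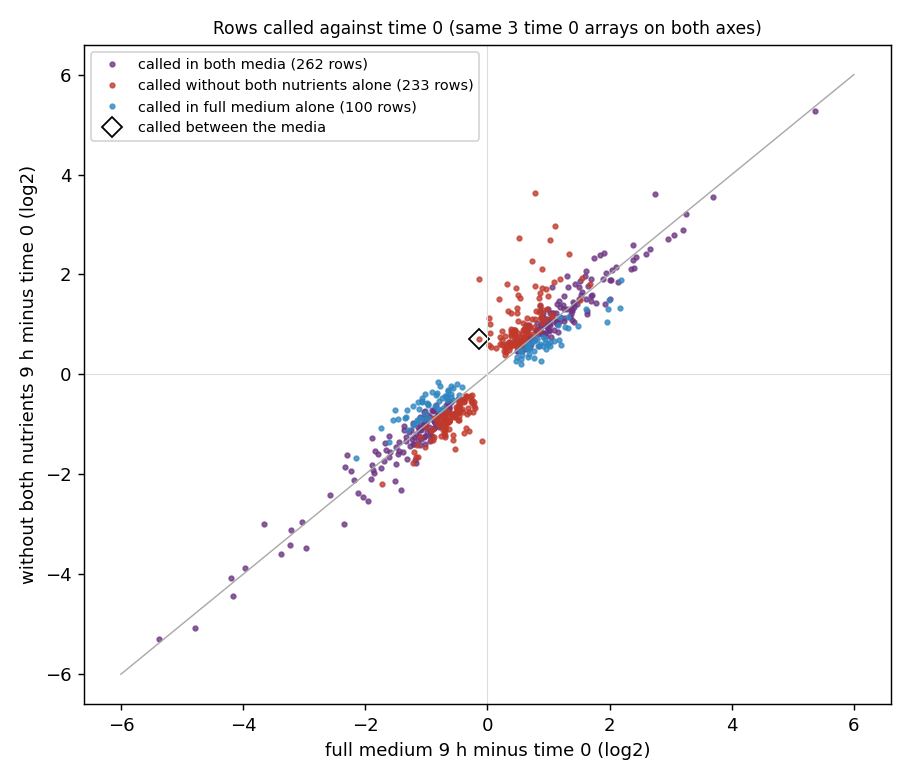
Each point is a row called against time 0, with its change in double-deprived roots (vertical axis, log2) against its change in full-medium roots (horizontal axis, log2), coloured by the medium in which it was called. The grey line marks equal change, the 262 rows called in both media run along it, and the diamond is the 1 row called between the media. Both axes subtract the same 3 time 0 arrays, which ties the 2 values of a row together.

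Among the 12 largest named rises, those called in both media included a chaperone-like gene, a Rossmann-fold protein, a cold-regulated clock gene and a fermentation gene. AT1G56300, a DnaJ-domain protein, measured 7.16, 6.42 and 7.03 in double-deprived roots, 6.97, 7.16 and 6.60 in full-medium roots and 3.47, 3.65 and 3.86 at time 0. It rose by 3.21 on the log2 scale (SE 0.26, adjusted p = 4.32e-10, limma), or 9.26-fold, and the difference between the media was -0.04 (95% interval -0.57 to 0.48). Every array after transfer lay above every time 0 array, and the 2 media overlapped. AT2G23910, a protein with an NAD(P)-binding Rossmann fold, measured 5.53, 5.97 and 4.21 in double-deprived roots, 4.56, 4.48 and 4.05 in full-medium roots and 2.14, 1.01 and 1.71 at time 0. Its rise was 3.61 without both nutrients (SE 0.47, adjusted p = 8.34e-06) and 2.74 in full medium (adjusted p = 0.000646), with an interval of -0.08 to 1.83 for the difference between the media. Its double-deprived arrays spread over more than a log2 unit and still cleared the time 0 arrays.

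PDC2, a pyruvate decarboxylase of ethanol fermentation, measured 6.30, 5.76 and 5.82 in double-deprived roots, 5.56, 5.39 and 5.38 in full-medium roots and 3.81, 3.22 and 3.57 at time 0. It rose by 2.43 (SE 0.26, adjusted p = 3.13e-07), or 5.37-fold, and by 1.91 in full medium (adjusted p = 2.55e-05). All 3 double-deprived arrays were above all 3 full-medium arrays, by a difference of 0.52 (95% interval -0.02 to 1.05) that did not pass. LCR69, a plant defensin, measured 8.68, 9.47 and 7.88 in double-deprived roots, 8.44, 8.10 and 8.10 in full-medium roots and 6.59, 6.83 and 6.40 at time 0, a rise of 2.07 (SE 0.40, adjusted p = 0.00242). CHX16, a cation/proton exchanger, rose by 1.88 (SE 0.32, adjusted p = 0.000495), and by 2.03 in full medium. Of 3 further loci with no role given here, AT2G15830 rose by 1.89 (adjusted p = 0.00141), AT5G60760 by 1.92 (adjusted p = 0.0116) and AT1G27020 by 2.12 (adjusted p = 0.0295), all 3 also called in full medium. The call of AT5G60760 was lost without double-deprived replicate 2 or time 0 replicate 3 (adjusted p up to 0.0676). That of AT1G27020 was lost when any 1 of the 3 double-deprived arrays or time 0 replicate 1 or 2 was left out (0.0505 to 0.143).

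The deepest named fall was that of bZIP58, a bZIP transcription factor. It measured 3.19, 3.31 and 2.90 in double-deprived roots, 3.88, 3.75 and 3.27 in full-medium roots and 7.40, 6.25 and 6.16 at time 0. Its change was -3.47 without both nutrients (SE 0.37, adjusted p = 1.99e-07), an 11.1-fold lower value, and -2.97 in full medium (adjusted p = 3.9e-06). The difference between the media was -0.50 (95% interval -1.25 to 0.25), and the arrays of the media overlapped while both lay far under time 0. AT3G13040, a MYB-CC factor of the family of PHR1, measured 5.71, 5.40 and 5.63 in double-deprived roots, 5.50, 5.64 and 5.73 in full-medium roots and 7.40, 7.01 and 7.52 at time 0. It fell by 1.73 (SE 0.21, adjusted p = 1.65e-06) and by 1.69 in full medium, with a difference between the media of -0.04 (95% interval -0.46 to 0.38). AT1G71200, which encodes CITF1, a bHLH factor of the copper response, measured 1.96, 1.80 and 1.43 in double-deprived roots, 2.04, 2.20 and 2.06 in full-medium roots and 3.82, 4.04 and 2.41 at time 0. It fell by 1.69 (SE 0.29, adjusted p = 0.000618), and time 0 replicate 3 was much nearer to the transferred roots than the other time 0 arrays.

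Other large falls were also shared. The membrane proteins of the ERD4-like (OSCA) channel family AT3G54510 and AT4G15430 fell by 1.96 (adjusted p = 1.7e-09) and by 1.81 (adjusted p = 0.00154). AT5G15950, an S-adenosylmethionine decarboxylase of polyamine synthesis, fell by 1.55 (adjusted p = 1.02e-06), AT3G16800, a type 2C protein phosphatase, by 1.44 (adjusted p = 0.00218) and AT5G67430, an acetyltransferase-family protein, by 1.88 (adjusted p = 0.00176). AT1G63410 fell by 1.78 (adjusted p = 5.09e-05) and AT2G38640 by 1.53 (adjusted p = 4.43e-05). All 7 were called in full medium as well, and AT1G63410 had a difference between the media of -0.61 (95% interval -1.14 to -0.09; adjusted p = 1) that did not pass. Of the 12 largest falls, AT2G28780 and AT5G19970 were not called in full medium. AT2G28780 measured 5.96, 5.29 and 7.73 in double-deprived roots, 6.80, 6.04 and 7.54 in full-medium roots and 8.44, 8.35 and 8.78 at time 0, a change of -2.20 (SE 0.56, adjusted p = 0.0341). AT5G19970 changed by -1.54 (SE 0.40, adjusted p = 0.0363). Both calls were lost without double-deprived replicate 1 or 2 or time 0 replicate 1 or 3, that of AT2G28780 also without time 0 replicate 2 (0.0638 to 0.231 for AT2G28780, 0.0929 to 0.2 for AT5G19970). In full medium AT2G28780 changed by -1.73 (adjusted p = 0.17, limma) and AT5G19970 by -1.21 (adjusted p = 0.182). Their differences between the media were -0.47 (95% interval -1.61 to 0.68) and -0.34 (95% interval -1.15 to 0.48).

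**Figure D2:**
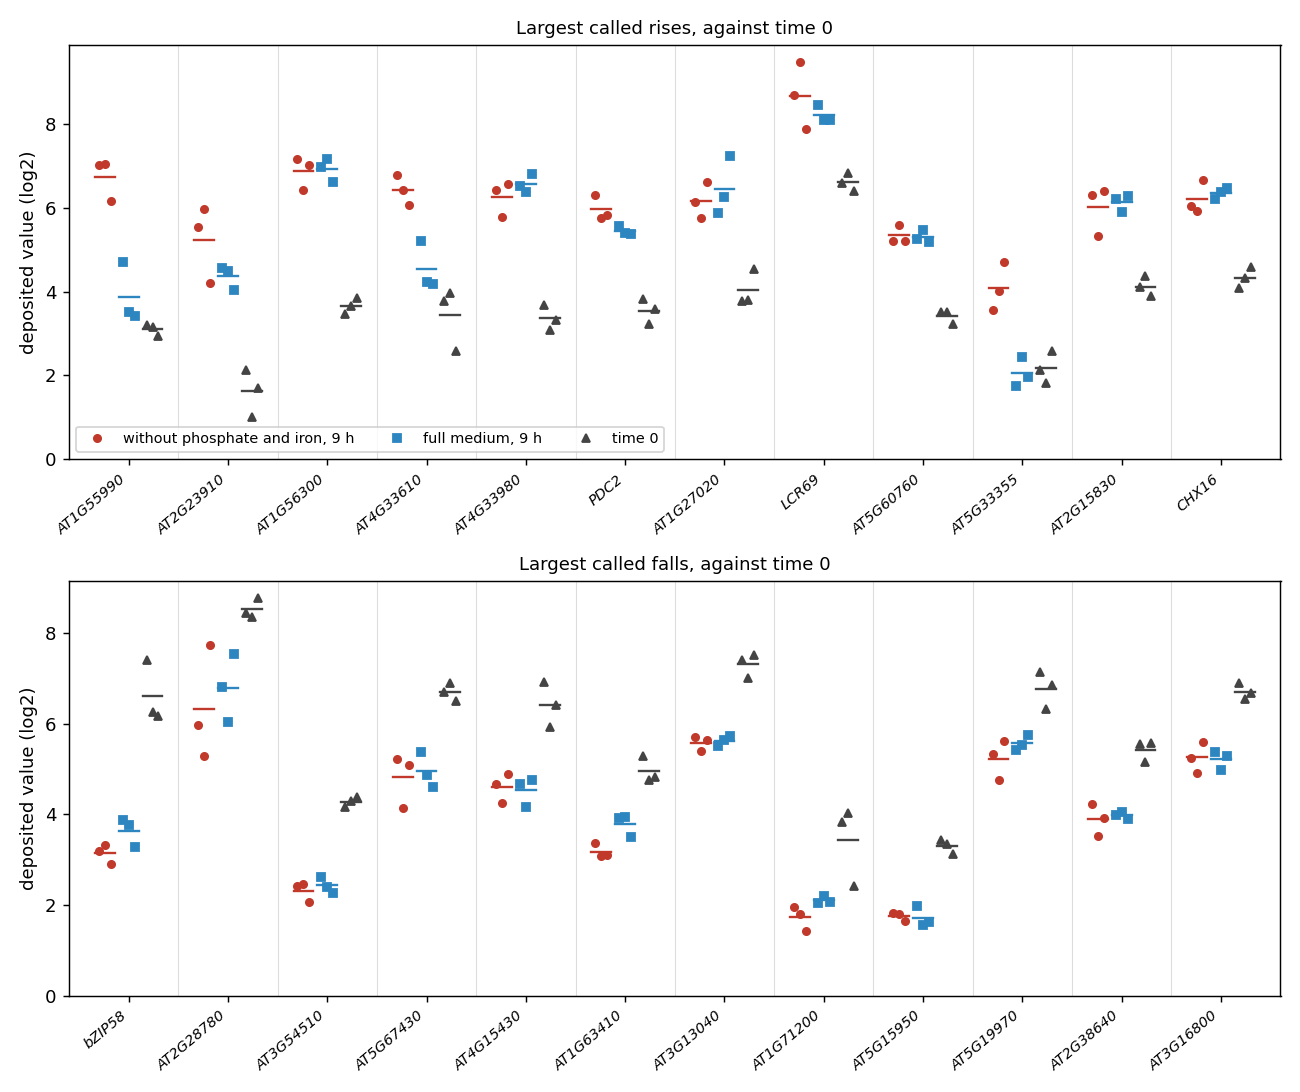
Deposited log2 values of the 12 largest called rises (upper panel) and falls (lower panel) with 1 gene, for double-deprived roots (red circles), full-medium roots (blue squares) and time 0 (black triangles); short lines are means of 3 arrays. Blue squares sit beside red circles for most genes, and beside time 0 for AT5G33355 (means 4.09 in double-deprived roots, 2.05 in full-medium roots and 2.19 at time 0). The full-medium mean was also nearer to time 0 for AT1G55990 (6.74, 3.88 and 3.10, in the same order) and AT4G33610 (6.42, 4.54 and 3.44).

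Genes called in double-deprived roots alone were ranked by the difference between the media. This ranking, also used below for the falls and for full medium alone, favours large differences, so their intervals tend away from 0. AT1G55990, a locus with no role given here, led them with 7.01, 7.05 and 6.15 in double-deprived roots, 4.70, 3.51 and 3.43 in full-medium roots and 3.21, 3.15 and 2.93 at time 0. It rose by 3.64 (SE 0.74, adjusted p = 0.00504), or 12.4-fold, while its change in full medium was 0.78 (adjusted p = 0.824). Double-deprived arrays stood above both other groups, and the difference between the media was 2.86 (95% interval 1.34 to 4.38; adjusted p = 0.912 in limma). The full-medium mean was higher at 6 h, 5.84 ± 1.35 (SD, n = 3), than at 9 h, 3.88 ± 0.71 (SD, n = 3), and arrays of this locus spread widely. AT4G33610, likewise without a role here, measured 6.78, 6.41 and 6.06 in double-deprived roots, 5.21, 4.23 and 4.18 in full-medium roots and 3.78, 3.97 and 2.57 at time 0. It rose by 2.98 (SE 0.66, adjusted p = 0.0111), with a difference between the media of 1.87 (95% interval 0.52 to 3.22; adjusted p = 1). Its call was lost without double-deprived replicate 1 (0.0656) or time 0 replicate 3 (0.0993).

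AT5G33355 measured 3.56, 4.01 and 4.71 in double-deprived roots, 1.75, 2.44 and 1.96 in full-medium roots and 2.14, 1.83 and 2.59 at time 0. It rose by 1.91 (SE 0.47, adjusted p = 0.025), and full-medium roots lay within the range of time 0 or just under it, with a change of -0.14 (adjusted p = 0.966). The difference between the media was 2.05 (95% interval 1.09 to 3.00; adjusted p = 0.912). The call was lost without double-deprived replicate 2 or 3 or time 0 replicate 1 or 2 (0.0701 to 0.155). AT4G36430, a secreted peroxidase of class III, measured 6.82, 6.94 and 6.44 in double-deprived roots, 5.45, 5.38 and 4.90 in full-medium roots and 4.80, 5.30 and 4.67 at time 0. Its rise of 1.81 (SE 0.48, adjusted p = 0.0427) was lost whichever of the 6 arrays was left out (0.0503 to 0.167), and the difference between the media was 1.49 (95% interval 0.51 to 2.46; adjusted p = 1). MSRB5, a methionine sulfoxide reductase that repairs oxidised proteins, measured 5.91, 4.73 and 5.04 in double-deprived roots, 4.33, 4.41 and 3.93 in full-medium roots and 3.23, 3.89 and 3.96 at time 0. It rose by 1.53 (SE 0.34, adjusted p = 0.012), with a difference between the media of 1.01 (95% interval 0.30 to 1.71; adjusted p = 1), and the call was lost without double-deprived replicate 1 (0.137) or time 0 replicate 1 (0.12).

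The falls called in double-deprived roots alone differed less between the media. AT3G06435 measured 4.36, 3.59 and 4.33 in double-deprived roots, 4.47, 5.18 and 5.03 in full-medium roots and 5.36, 5.87 and 4.59 at time 0, a change of -1.18 (SE 0.26, adjusted p = 0.00988). The full-medium arrays lay between the other 2 groups and overlapped with time 0, and the difference between the media was -0.80 (95% interval -1.33 to -0.27; adjusted p = 1). IAA34, an Aux/IAA repressor of auxin signalling, measured 2.003, 2.21 and 2.33 in double-deprived roots, 2.73, 2.58 and 2.74 in full-medium roots and 3.15, 2.72 and 2.92 at time 0, a change of -0.75 (SE 0.19, adjusted p = 0.0369). The double-deprived arrays of IAA34 were under all full-medium and time 0 arrays. Its difference between the media was -0.51 (95% interval -0.90 to -0.11, adjusted p = 1). AT3G29639 changed by -1.22 (adjusted p = 0.0369) and AT2G29340 by -1.08 (adjusted p = 0.0408), with differences between the media of -0.53 and -0.45 whose intervals held 0. All 4 calls depended on single arrays. That of AT3G06435 was lost without double-deprived replicate 2 or time 0 replicate 1 or 2 (0.0598 to 0.111), and that of IAA34 without any 1 double-deprived array or time 0 replicate 1 or 3 (0.0567 to 0.232). The call of AT3G29639 was lost without double-deprived replicate 2 or 3 or time 0 replicate 1 (0.12 to 0.333), and that of AT2G29340 without any 1 double-deprived array or time 0 replicate 1 or 2 (0.103 to 0.174).

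The rises ranked by the difference between the media were also set against time 0 in each single deprivation at 9 h. The same 3 time 0 arrays were used. AT1G04770, named through the sulfur deficiency list and outside that ranking, is given with them. AT1G55990 changed by 2.80 without iron (adjusted p = 0.0518) and by 1.61 without phosphate (adjusted p = 0.498), and AT4G33610 by 2.27 without iron (adjusted p = 0.0908) and by 1.64 without phosphate (adjusted p = 0.363), none of them called. AT1G04770, from the SDI family known for its response to low sulfur, measured 5.002, 4.38 and 4.91 in double-deprived roots, 3.70, 4.07 and 3.96 in full-medium roots and 2.65, 3.30 and 3.13 at time 0. It rose by 1.74 without both nutrients (SE 0.26, adjusted p = 7.41e-05), by 2.33 without iron (adjusted p = 3.81e-07) and by 1.01 without phosphate (adjusted p = 0.0399), and its change of 0.89 in full medium did not pass (adjusted p = 0.0935). Double-deprived arrays of AT1G04770 lay above all full-medium arrays, with a difference of 0.85 (95% interval 0.33 to 1.38; adjusted p = 1). MSRB5 rose by 1.61 without iron (adjusted p = 0.00853), with 0.72 without phosphate (adjusted p = 0.525). The peroxidase AT4G36430 rose by 2.33 without phosphate (adjusted p = 0.0057), with 0.68 without iron (adjusted p = 0.691). AT5G33355 changed by 0.85 without iron and by -0.02 without phosphate, neither called. Double-deprived roots were also tested directly against each single deprivation at 9 h: none of the 28501 rows was called against medium without phosphate (0% of rows, 1029 at an unadjusted p under 0.05), and 1 was called against medium without iron (0.00351%, with 915 at an unadjusted p under 0.05). These 2 tests were chosen after the other values were seen.

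The 1 row called between double-deprived and full-medium roots was transcript cluster 13491556, to which the annotation gives no gene. It measured 1.98, 2.35 and 2.39 in double-deprived roots, 1.34, 1.55 and 1.29 in full-medium roots and 1.48, 1.49 and 1.60 at time 0. Double-deprived arrays lay above all full-medium and time 0 arrays. The difference was 0.85 from full-medium roots (95% interval 0.59 to 1.11, adjusted p = 0.00706) and 0.72 from time 0 (SE 0.13, adjusted p = 0.00103). The same cluster was the row called against medium without iron, with a difference of 0.76 (adjusted p = 0.047), and its difference from medium without phosphate was 0.59 (adjusted p = 0.392). Its level is low, under the median of all rows, and its full-medium values lay under the lowest first quartile of the arrays, 1.60. The call between double-deprived and full-medium roots was lost, with 0 rows called, without double-deprived replicate 2, full-medium replicate 1 or full-medium replicate 3. Without double-deprived replicate 3, 2 rows were called.

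**Figure D3:**
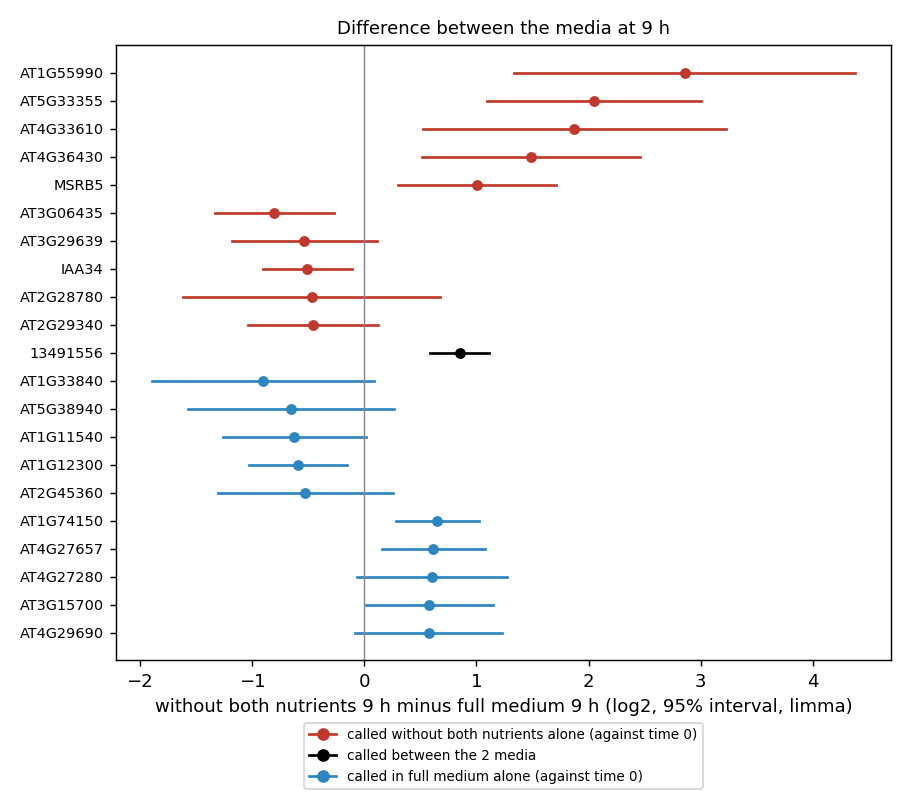
Double-deprived minus full-medium roots at 9 h (log2, points with 95% intervals from limma) for the genes called against time 0 without both nutrients alone (red), the row called between the media (black) and the genes called in full medium alone (blue). The red and blue genes were chosen for their large difference between the media, which pushes their intervals away from 0. Intervals of several of them lie on 1 side of 0, and only the difference of 13491556 passed adjustment over all rows.

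Genes called in full medium alone had smaller changes of the same sign in double-deprived roots. AT1G33840 measured 3.85, 3.47 and 4.73 in double-deprived roots, 5.32, 4.91 and 4.54 in full-medium roots and 2.54, 4.04 and 2.31 at time 0, changes of 1.05 without both nutrients (adjusted p = 0.383) and 1.96 in full medium (adjusted p = 0.0331). The 2 media overlapped, and their difference was -0.90 (95% interval -1.89 to 0.09). AT5G38940, AT1G11540, AT1G12300 and AT2G45360 had differences between the media from -0.65 to -0.52. On the falling side, AT1G74150 measured 2.38, 2.34 and 2.07 in double-deprived roots, 1.76, 1.47 and 1.60 in full-medium roots and 2.28, 2.52 and 2.44 at time 0. Its full-medium arrays were under all double-deprived and time 0 arrays. The changes were -0.15 without both nutrients (adjusted p = 0.849) and -0.80 in full medium (adjusted p = 0.0158). The difference between the media was 0.65 (95% interval 0.28 to 1.02, adjusted p = 1). AT4G27657, AT4G27280, AT3G15700 and AT4G29690 differed between the media by 0.57 to 0.62, none called.

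Clock genes were the listed group with the most calls. Of 31 listed genes of the circadian clock and its outputs, 5 had a row with 1 gene, of which 3 rose and 1 fell, beside the 1.74% of all rows that were called. Their median change was 0.89 without both nutrients and 0.97 in full medium. AT4G33980, known as COR28, a cold-regulated gene that feeds back on the clock, measured 6.42, 5.77 and 6.57 in double-deprived roots, 6.52, 6.38 and 6.80 in full-medium roots and 3.68, 3.07 and 3.33 at time 0, a rise of 2.89 (SE 0.21, adjusted p = 2.9e-11). Its relative COR27 measured 2.33, 2.39 and 2.49 in double-deprived roots, 2.097, 2.46 and 2.73 in full-medium roots and 1.58, 1.31 and 1.49 at time 0, a rise of 0.94 (SE 0.17, adjusted p = 0.000967). GI, a clock protein that also controls flowering, measured 8.06, 7.46 and 8.19 in double-deprived roots, 8.08, 8.01 and 7.99 in full-medium roots and 7.10, 6.80 and 7.15 at time 0, a rise of 0.89 (SE 0.19, adjusted p = 0.00829). For all 3 the media overlapped and both lay above time 0. AT1G26790, a Dof transcription factor of the CYCLING DOF FACTOR family, fell by 0.71 (SE 0.17, adjusted p = 0.0203), and AT5G52660, a REVEILLE factor, measured a change of 0.17. In full medium AT1G26790 was also called, with a change of -0.91 (adjusted p = 0.00222). The means of COR27 at time 0 (1.46) and of AT1G26790 in double-deprived (1.47) and full-medium roots (1.28) were low. They lay under the lowest first quartile of the arrays, 1.60, so the sizes of these 2 changes are uncertain. The call of GI was lost without double-deprived replicate 1 or 3 or time 0 replicate 2 (0.055 to 0.0817), and that of AT1G26790 without double-deprived replicate 1 or 3 or time 0 replicate 1 (0.0878 to 0.249). The hour of day of each harvest is not given in the sources used here, and its part in these values was not tested.

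In the local phosphate response and STOP1 list, 4 of 10 genes had a row and 1 rose, beside the 1.74% of all rows that were called. LPR2, a ferroxidase of the root tip, measured 6.33, 6.27 and 5.95 in double-deprived roots, 5.78, 6.19 and 5.88 in full-medium roots and 4.90, 5.01 and 5.18 at time 0. Its rise was 1.15 without both nutrients (SE 0.20, adjusted p = 0.000793) and 0.92 in full medium (adjusted p = 0.013), and the media overlapped with a difference of 0.24 (95% interval -0.18 to 0.65). Its partner LPR1 changed by 0.59 (adjusted p = 0.195), the citrate transporter of the MATE family AT1G51340 by 1.01 (adjusted p = 0.349) and AT5G01720, the F-box protein RAE1 that degrades STOP1, by 0.12. The list's median change was 0.80 without both nutrients and 0.41 in full medium, beside -0.01 over all rows in each medium.

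In the iron deficiency list, 13 of 42 genes had a row and none was called. Their changes ran from -0.40 to 0.77 with a median of -0.02, beside -0.01 over all rows. AT1G47395, which encodes IMA2, a small peptide that signals iron shortage, measured 2.14, 1.68 and 1.66 in double-deprived roots, 1.75, 1.24 and 1.53 in full-medium roots and 0.92, 0.98 and 1.27 at time 0, a change of 0.77 (SE 0.31, adjusted p = 0.293). Double-deprived arrays did not overlap with time 0, at values near the floor of the table. Without iron alone at 9 h, IMA2 was the only measured gene of this list to be called. It averaged 2.51 ± 0.89 there (SD, n = 3), a change of 1.46 from time 0 (adjusted p = 0.00927, limma). The transcription factor bHLH104, which acts upstream of FIT, changed by 0.32 (SE 0.12, adjusted p = 0.234). None of 10 listed iron storage genes and 1 of 33 phosphate starvation genes had a row with 1 gene. That gene, AT1G63010, a vacuolar phosphate transporter with an SPX domain, measured 3.77, 3.45 and 3.83 in double-deprived roots, 3.88, 3.76 and 3.90 in full-medium roots and 3.42, 3.61 and 3.36 at time 0, with overlapping groups and a change of 0.22 (SE 0.15, adjusted p = 0.652). Without phosphate alone at 9 h it was called, with a change of 0.58 from time 0 (adjusted p = 0.0406).

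The other lists held single calls. DREB2C, a dehydration and heat response factor, was the only one of 7 measured genes of the dehydration, cold and abscisic acid list to be called, with 3.52, 3.65 and 3.15 in double-deprived roots, 3.24, 3.23 and 3.71 in full-medium roots and 1.48, 2.24 and 1.84 at time 0. It rose by 1.59 (SE 0.27, adjusted p = 0.000487) in double-deprived roots and by 1.54 in full medium. In the same list SIS, a salt-induced gene, changed by -1.32 (adjusted p = 0.0728) and COR47, a dehydrin, by 0.76 (adjusted p = 0.0605). KIN2, a cold-induced gene, changed by -0.64 without both nutrients (adjusted p = 0.124) and fell by 0.85 in full medium (adjusted p = 0.0264), and the list's median was 0.08. Of 8 measured auxin genes, WES1, a GH3 enzyme that conjugates auxin to amino acids, was called: it measured 5.22, 5.01 and 5.17 in double-deprived roots, 5.11, 5.05 and 5.43 in full-medium roots and 5.63, 6.28 and 5.98 at time 0. It fell by 0.83 (SE 0.19, adjusted p = 0.0123), as in full medium (-0.76), and the call was lost without double-deprived replicate 2 or time 0 replicate 2 or 3 (0.0536 to 0.0926). The auxin list's median was -0.22. In the sulfur deficiency and the sugar starvation and darkness lists, with 2 measured genes each, the calls were those of AT1G04770 and bZIP58 given above. The jasmonate, wounding and touch list (2 measured), the nitrate list (1 measured) and the heat shock and unfolded protein list (1 measured) held none. STZ, a zinc finger repressor of stress responses, changed by -0.45 (adjusted p = 0.804), AT1G68670, a MYB-type regulator of nitrate responses, by -0.44 (adjusted p = 0.246) and BZIP60, a factor of the unfolded protein response, by -0.15 (adjusted p = 0.787). Over all 14 lists, 51 of 261 genes had a row with 1 gene, 6 of them rose and 3 fell, which is 17.6% of those measured, beside 1.74% of all rows. The lists were chosen with earlier results of these data known, so that share is a description of the lists.

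Tissue markers were measured beside these changes. PYK10, an abundant root beta-glucosidase, measured 11.3 ± 0.05 in double-deprived roots and 11.5 ± 0.03 at time 0 (SD, n = 3 each; adjusted p = 0.404, limma), near the top of the table's range, and EXPA7, a root hair expansin, changed by -0.45 (adjusted p = 0.74). These 2 were the measured ones of 23 root markers. Of 11 shoot and photosynthetic markers, 3 were measured and none was called. RCA, the activase of Rubisco, measured 6.42, 6.57 and 7.85 in double-deprived roots, 6.53, 6.13 and 7.71 in full-medium roots and 6.86, 6.42 and 8.50 at time 0. Replicate 3 was the highest of each of these 3 groups for all 3 shoot markers, RCA, LHCB4.1 and SBPASE, with a median over the 13 groups of 7.97 for RCA, against 6.60 in replicate 1 and 6.57 in replicate 2. These levels followed the replicate number in the 3 groups, and their part in the results was not tested.

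**Figure D4:**
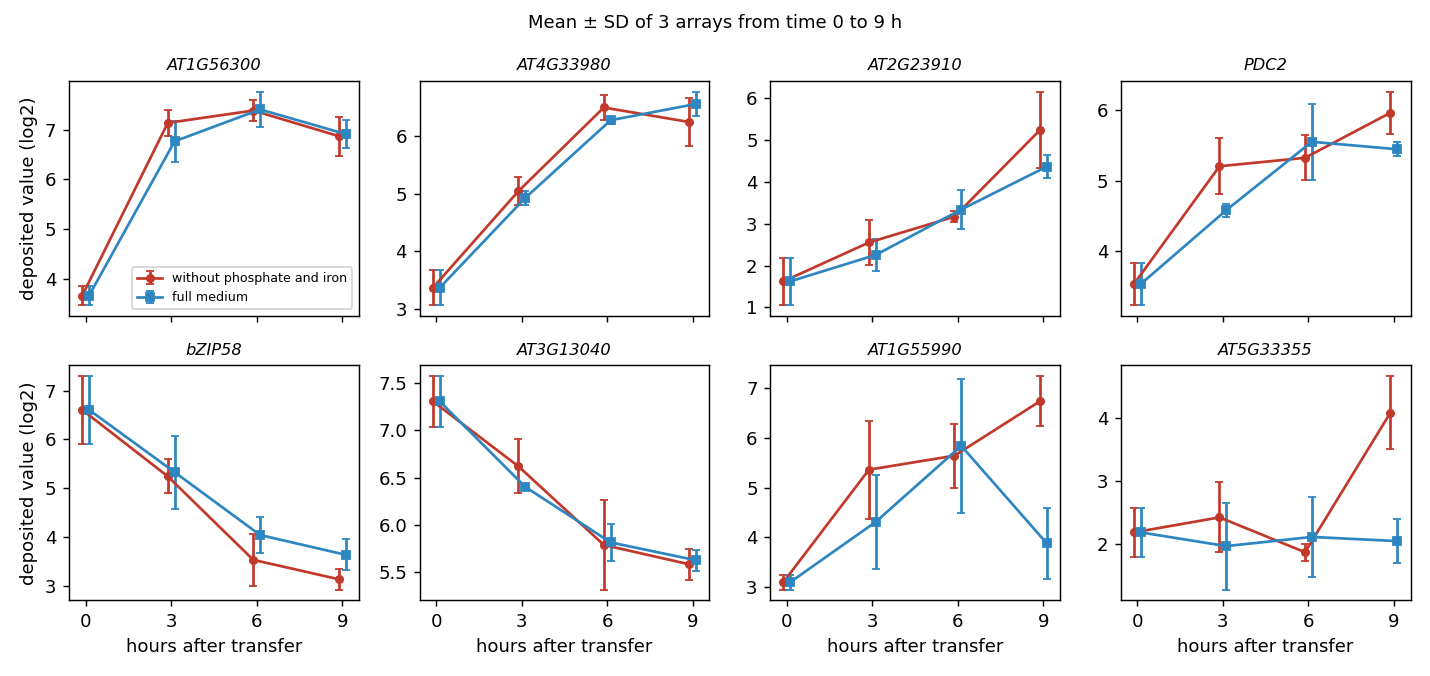
Mean ± SD of 3 arrays (log2) at 0, 3, 6 and 9 h in medium without phosphate and iron (red) and in full medium (blue) for 8 genes, with a scale of its own in each panel and the same time 0 arrays in both lines. AT1G56300 had reached 7.14 at 3 h without both nutrients, bZIP58 went down over 3, 6 and 9 h (5.24, 3.53 and 3.13), and AT5G33355 stood high only at 9 h (2.43, 1.87 and 4.09).

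The earlier hours show when the shared changes had appeared. AT1G56300 averaged 3.66 ± 0.19 at time 0 and 7.14 ± 0.25, 7.39 ± 0.21 and 6.87 ± 0.39 after 3, 6 and 9 h without both nutrients (SD, n = 3 each), so most of the difference was present at 3 h. AT4G33980 averaged 3.36 ± 0.30 at time 0 and then 5.05 ± 0.24, 6.51 ± 0.21 and 6.25 ± 0.42, and bZIP58 averaged 6.60 ± 0.69 at time 0 and then 5.24 ± 0.35, 3.53 ± 0.54 and 3.13 ± 0.21. AT1G55990 averaged 3.10 ± 0.15 at time 0 and then 5.36 ± 0.98, 5.64 ± 0.64 and 6.74 ± 0.51. The values at 3 and 6 h are given as a description, with no test.

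Groups of genes with a common biochemical role were also described, chosen after the values were seen. A second defensin, PDF2.1, measured 3.54, 3.12 and 3.28 in double-deprived roots, 2.39, 2.39 and 2.89 in full-medium roots and 1.64, 1.53 and 1.22 at time 0. It rose by 1.85 (SE 0.30, adjusted p = 0.000292), its change of 1.098 in full medium did not pass (adjusted p = 0.0674), and the double-deprived arrays were above both other groups. PWD, a phosphoglucan water dikinase, and DPE1, a glucan transferase, both of starch breakdown, rose by 1.09 (adjusted p = 0.00921) and by 0.85 (adjusted p = 0.0102), and both were called in full medium. The calls of PWD and DPE1 were lost without double-deprived replicate 3 (0.0669 and 0.0807) or time 0 replicate 1 (0.0546 and 0.148). The jacalin-related lectins JAL33 and JAL34 fell by 1.02 (adjusted p = 0.000137) and by 0.52 (adjusted p = 0.00888), and the call of JAL34 was lost without time 0 replicate 2 (0.0544). JAL33 was also called in full medium, with a change of -1.06 (adjusted p = 0.0001), and JAL34 was not (-0.38, adjusted p = 0.108). GH3.17, another auxin-conjugating enzyme, fell by 0.99 (adjusted p = 0.0177), a call lost without double-deprived replicate 1 or 3 or time 0 replicate 1 or 3 (0.0501 to 0.113). It was also called in full medium, with a change of -1.02 (adjusted p = 0.0163).

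Of the UDP-glycosyltransferases, enzymes that attach sugars to small molecules, 3 called genes are given, and the measured members of the family were not counted. UGT73B2 measured 4.05, 3.92 and 4.16 in double-deprived roots, 3.38, 3.11 and 3.41 in full-medium roots and 2.79, 2.59 and 3.08 at time 0, a rise of 1.22 (SE 0.29, adjusted p = 0.0213). GT72B1 measured 5.63, 5.76 and 5.78 in double-deprived roots, 4.88, 5.27 and 4.68 in full-medium roots and 5.11, 4.69 and 4.88 at time 0, a rise of 0.83 (SE 0.20, adjusted p = 0.0243). Double-deprived arrays of both genes lay above all full-medium and time 0 arrays. The differences between the media, 0.74 (95% interval 0.14 to 1.34) and 0.78 (95% interval 0.37 to 1.20), did not pass adjustment. Without iron alone at 9 h, UGT73B2 changed by 0.82 and GT72B1 by 0.62, and without phosphate alone by 0.35 and 0.17, none called. At 3 h without both nutrients, UGT73B2 averaged 4.42 ± 0.11 and GT72B1 5.95 ± 0.37 (SD, n = 3 each), higher than at 9 h. The call of UGT73B2 was lost without any 1 double-deprived array or time 0 replicate 1 or 2 (0.0534 to 0.0917), and that of GT72B1 without any 1 double-deprived array or time 0 replicate 2 or 3 (0.056 to 0.107). UGT71B5 fell by 1.32 (SE 0.26, adjusted p = 0.00337), with a change of -0.92 in full medium (adjusted p = 0.0788). Among class III peroxidases, Prx37 rose by 1.11 (SE 0.29, adjusted p = 0.0401) and AT1G34510 fell by 1.43 (SE 0.30, adjusted p = 0.00715). AT1G34510 was also called in full medium, with a change of -1.26 (adjusted p = 0.027), and Prx37 was not (0.79, adjusted p = 0.273). The call of Prx37 was lost without any 1 double-deprived array or time 0 replicate 1 or 3 (0.0702 to 0.199). That of AT1G34510, whose time 0 arrays measured 4.25, 2.64 and 2.83, was lost without time 0 replicate 1, where its change was -0.93 (adjusted p = 0.128).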

How the data were processed

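Root RNA was measured on whole-transcript expression arrays, 3 per group in 13 groups. The authors deposited 1 table of log2 expression values for 28501 rows and 39 arrays, none of them missing. GCRMA, the Transcriptome Analysis Console and the Affymetrix Expression Console are named as tools, per the submitters' processing notes, and their versions are not given in the sources used here. The log base is inferred from the range, 0.141 to 12.8, with array medians of 3.34 to 3.45, and every fold depends on it. The values were used as deposited. Scanner files were not used here, so detection per probe is unknown, and the number of arrays limits the precision.

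Groups were taken from the sample titles. One model with a mean for each of the 13 groups was fitted to all 39 arrays by lmFit and eBayes of limma 3.58.1 (R 4.3.3, two-sided moderated test), with p-values adjusted by Benjamini-Hochberg over all rows in each comparison, a threshold of 0.05 and no fold minimum. Errors are standard errors of the fit and intervals are 95%. The procedure was tested on simulated data.

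Same-numbered samples deviated together from their group means. The correlations of these deviations were 0.129 to 0.307 between double-deprived and time 0 samples and 0.27 to 0.456 between double-deprived and full-medium samples, so the numbers were taken to pair these samples (minimum 0.1 in each pair). Between full-medium and time 0 samples the lowest was 0.0886, under that minimum, so the numbers were not taken to pair them. Their mean was 0.263 at like numbers and -0.131 at unlike numbers, beside 0.208 and -0.104 between double-deprived and time 0 samples. The minimum alone set these samples apart, and like numbers may pair them too. The pairing comes from the data, since the labels give a number alone. The main fit has no replicate term, so its errors, p-values and intervals leave this pairing out.

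Rows were named through the platform annotation; of 16746 rows with 1 gene, 16601 matched RefSeq (assembly TAIR10.1, names only). Of several rows of 1 gene, the one with the highest mean was used. The members and the gene lists were chosen with earlier results of these data known. Named genes are the 12 largest called rises and falls with 1 gene, up to 4 called members of each list or else the 2 with the lowest p, the 5 genes of each sign called in 1 medium alone with the largest difference between the media, and each row called between the media. Names outside this rule are those of other list members, the role groups and the rows without a gene, all chosen after their values were seen. The parts of the plan that needed promoter sequences or gene descriptions were not run.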

Additional observations from a re-analysis of the deposited data

Results flagged for a closer look

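Transcript cluster 13491556, which has no gene in the annotation, is given because its response to 9 h after transfer differed between the media by a test of the difference itself. It was 0.72 higher than time 0 in double-deprived roots, against a change of -0.13 in full-medium roots, a difference of 0.85 on the log2 scale (adjusted p = 0.00706, limma over 28501 rows), with all 3 double-deprived arrays above all full-medium and time 0 arrays. Over the earlier hours without both nutrients it averaged 1.34 ± 0.07 at 3 h and 1.57 ± 0.19 at 6 h, and 2.24 ± 0.23 at 9 h (SD, n = 3 each). These values are low for the arrays. The call between the media was lost without double-deprived replicate 2, full-medium replicate 1 or full-medium replicate 3. It was also lost when only the compared groups were fitted.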

How the results depend on the processing

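The count of rows called in double-deprived roots against time 0 (495) was 774 with the replicate block, 825 with array weights, 251 with a minimum change of 1 and 246 to 473 with 1 array left out. The count shared with full medium (262) was 151 with that minimum, 446 where full medium needed only an unadjusted p under 0.05, and 144 to 267 with 1 array left out. Between the media (1 row) it was 0 when only the compared groups were fitted and 0 among rows brighter than the median, where the row was not tested, 2 with array weights and 0 to 2 with 1 array left out. The shared count and the count between the media are not given here with the block. The full-medium count (362) was 555 with the block, 571 with array weights and 201 to 393 with 1 array left out; these full-medium alternatives were chosen after seeing the data. Quantile normalization and an intensity trend kept all 4 counts within 1.5 times. Of 59 named called results, 34 passed under every alternative that tested them, 25 were lost without at least 1 array and none reversed. The block lost none of them. Fitting only the compared groups lost 10: AT1G26790, AT1G34510, AT1G64500, AT2G28780, AT3G06435, AT3G29639, DPE1, JAL31, JAL34 and WES1. Array weights lost 1, AT3G29639. The losses given beside single genes in this text are those with 1 array left out. The cause of these shifts was not tested, beyond fewer arrays or rows. The promoter and gene-description parts of the plan were not run. At values near the bottom of the table the arrays give little signal, and changes there are uncertain.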

Other observations

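The largest changes of the double-deprived roots were at rows to which the annotation gives no gene, chosen here after their values were seen. Cluster 13419281 measured 8.07, 7.86 and 7.66 in double-deprived roots, 7.79, 8.20 and 7.89 in full-medium roots and 2.86, 2.11 and 2.81 at time 0, a rise of 5.27 (SE 0.26, adjusted p = 5.53e-15, limma). Cluster 13405973 measured 2.21, 2.08 and 2.33 in double-deprived roots, 1.80, 2.49 and 2.11 in full-medium roots and 7.93, 6.94 and 7.66 at time 0, and it fell by 5.30 (SE 0.24, adjusted p = 1.52e-15). Clusters 13361823, 13459960, 13427204 and 13530086 fell by 5.07, 4.44, 4.08 and 3.88. All 6 were called in full medium with changes within 0.29 of those without both nutrients, and the named genes of this text therefore do not include the largest differences from time 0.

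Further single genes with a known role, also chosen after their values were seen, were called in both media. SCPL49, a serine carboxypeptidase-like protein, measured 7.14, 6.86 and 7.07 in double-deprived roots, 6.92, 7.21 and 7.12 in full-medium roots and 6.02, 6.02 and 5.81 at time 0, a rise of 1.07 (SE 0.13, adjusted p = 1.23e-06). PHOS34, a universal stress protein, measured 6.34, 5.92 and 6.02 in double-deprived roots, 6.50, 6.16 and 6.07 in full-medium roots and 7.47, 7.17 and 7.07 at time 0, and it fell by 1.14 (SE 0.15, adjusted p = 9.12e-06). AT1G64500, a glutaredoxin-family protein, measured 2.87, 2.98 and 2.102 in double-deprived roots, 2.001, 1.93 and 2.17 in full-medium roots and 4.15, 3.18 and 4.42 at time 0. It fell by 1.27 (adjusted p = 0.0132) without both nutrients and by 1.88 in full medium, with a difference between the media of 0.62 (95% interval 0.03 to 1.20; adjusted p = 1). The call without both nutrients was lost without double-deprived replicate 3 or time 0 replicate 1 or 3 (0.0977 to 0.132).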
